A study of Mus musculus with 10 samples.

Results

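Homeobox factors other than the Hox genes were taken from the count tables of mouse vagal sensory neurons as every row whose symbol begins with the family name of Six4 (sine oculis homeobox) or with Irx, Lhx, Lmx, Meis, Pbx, Pknox, Dlx, Nkx, Pax, Pitx, Otx, Onecut, Cux, Zfhx or Pou with its family number, leaving out Pou4f1. The rule found 99 of 24421 rows, and it used the symbol only, not any count. Of these 99 rows, 85 are genes of these homeobox families, Pax genes with a whole or partial homeobox included. The other 14 are no homeobox gene and were counted apart: 9 opposite-strand or antisense RNAs, 3 genes of binding partners (Paxbp1, Paxip1 and Pbxip1) and 2 paired box genes without a homeobox.

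The 10 libraries were pools of single neurons in 5 groups of 2 pools, all picked from the rostral (jugular) or caudal (nodose) end of the fused jugular/nodose ganglion. In the Trpv1 selection, red neurons were picked from 2 Trpv1-tdTomato mice, in which Cre made from the Trpv1 locus switches on the ROSA26 tdTomato reporter, so that cells that once expressed Trpv1 are marked too: 2 pools of 30 Trpv1+ nodose neurons, 2 pools of 30 Trpv1+ jugular neurons and 2 pools of 15 unmarked Trpv1- nodose neurons from the same mice. In the capsaicin selection, C57BL/6 wild-type neurons were chosen by their calcium response: nodose pools of 14 and 15 neurons that responded to 10 μM α,β-methylene-ATP and 1 μM capsaicin, and jugular pools of 15 and 16 neurons in which capsaicin, and not α,β-methylene-ATP, gave a response. The age of the mice was not given in the sources used here. The 2 pools of a group may share mice, so their spread may be partly technical, and 2 pools against 2 cannot reach an exact permutation p under 0.33. In pools, fewer cells that express a gene and less RNA per cell cannot be told apart.

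The total count was 148452506 to 167704327 per pool in the Trpv1 selection and 17666710 to 30810863 in the capsaicin selection. Levels are given as CPM, which here are counts divided by the DESeq2 size factors of all 10 pools and scaled to the geometric mean total. On this scale 3 counts, taken as the floor of detection, equal 0.0116 to 0.0154 CPM in the Trpv1 selection against 0.118 to 0.176 CPM in the capsaicin selection, which covers counting error only. The labels matched the ganglion markers. The nodose marker P2rx2 lay at 61.45 CPM or more in the nodose pools and at 0.235 CPM or less in the jugular pools. Hoxb5 lay at 233 CPM or more and 0.196 CPM or less. Trpv1 was at 0.033 and 0.035 CPM in the Trpv1- pools, 17.8 and 25.8 CPM in the Trpv1+ jugular pools and 70.6 CPM or more in the others. Scn10a, the other listed marker of the selection, did not separate the groups. Its level was 163 and 108 CPM in the Trpv1- pools and 59.6 to 657 CPM in the Trpv1+ and capsaicin pools. The jugular marker Tac1 lay at 248.5 CPM or more in the jugular pools and at 0.767 CPM or less in the nodose pools, and Prdm12 at 22.25 CPM or more and 0.19 CPM or less. Neuronal markers summed to 7362 to 13930 CPM per pool, the 4 endothelial markers to 3.22 CPM at most, and of the macrophage markers Aif1, Csf1r, C1qa and C1qb were at 0 in all pools. The remaining macrophage marker, Cd68, was at 75.7 CPM in the first capsaicin nodose pool, 17.85 CPM in the first capsaicin jugular pool, 4.66 CPM in the first Trpv1+ nodose pool and 0.117 CPM or less in the others. The ribosomal RNA row Rn45s took 8.54% and 10.3% of the counts in the Trpv1+ nodose pools and 3.38% or less in the others. Replicate pools correlated across genes at Pearson's r of 0.677 in the nodose capsaicin group and at 0.795 to 0.856 in the others.

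Homeodomain proteins bind DNA through a helical fold of that name, and they set and maintain cell identity. In the TALE class, which also holds Irx, the Meis, Pknox and Pbx proteins bind DNA together with Hox proteins and with each other, Six4 and its relatives act with Eya cofactors in the cranial placodes from which nodose neurons arise, and the LIM class (Lhx, Lmx) need Ldb adaptors. Cut (Cux, Onecut), POU and zinc finger homeobox (Zfhx) proteins carry a second kind of DNA-binding domain beside the homeodomain. Jugular neurons come from the neural crest.

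Most of the list was silent or close to it. No read was counted in any pool for 41 of the 99 members, a further 26 stayed under 1 CPM in every pool, and 8 peaked between 1 and 10 CPM, so that 24 members reached 10 CPM in at least 1 pool. Of these, 12 reached 10 CPM in both pools of at least 1 group, and 1, Zfhx3, did so in all 10 pools. In a single pool, 9 to 40 of the 99 members had 3 counts or more, beside 6179 to 12022 of all 24421 rows. The share of all rows without a count in any pool was not determined. The families differed in how much of them was seen. In the TALE class 9 of 15 genes reached 10 CPM in a pool and 5 did so in both pools of a group, and all 3 Zfhx genes reached 10 CPM in a pool. The highest level was 0.510 CPM among the 10 LIM genes and 0.819 CPM among the 14 Nkx genes, and the 3 Pitx genes had no count at all. For the 6 Irx genes the highest level was 0.00981 CPM, under the floor. Of 14 POU genes 2 reached 10 CPM, never in both pools of a group, and of 7 paired box genes 1 did. Dlx genes, known from ventral forebrain and branchial arches, reached 6.26 CPM at most.

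Pools of a group disagreed about single members. Taking each member in each group where at least 1 pool reached 10 CPM, the other pool was under 1 CPM in 23 of 62 cases, or 37.1%, against 24.5% of 37693 such cases over all rows. Per group the share was 3 of 10 members in the Trpv1+ nodose pools (30%), 6 of 15 in the Trpv1+ jugular pools (40%), 3 of 5 in the capsaicin nodose pools (60%), 8 of 16 in the capsaicin jugular pools (50%) and 3 of 16 in the Trpv1- nodose pools (18.8%). The members' levels were not matched to those of all rows in this comparison, and the difference in shares was not tested. A member seen in 1 pool of 14 to 30 neurons and not in the other is therefore given below with both values.

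**Figure D1:**
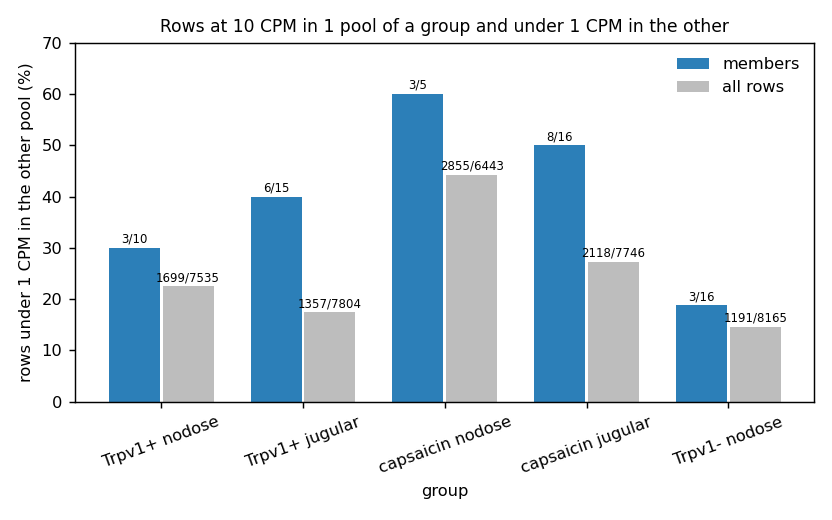
Share, in percent, of rows at 10 CPM or more in at least 1 pool of a group whose other pool was under 1 CPM, for the 99 members (blue) and all 24421 rows (grey), by group, with the numbers behind each bar above it. The members' bar is the taller one in each of the 5 groups, from 18.8% in the Trpv1- nodose pools to 60% in the capsaicin nodose pools.

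By group, the members at 10 CPM in both pools were few, and their identity differed from group to group. The Trpv1+ nodose pools had 3, Zfhx3 and Meis3 among them, the Trpv1+ jugular pools 4 (Zfhx3, Pknox2, Pbx4 and the non-homeobox Paxbp1), the capsaicin nodose pools 2, Zfhx3 among them, the capsaicin jugular pools 6 (Zfhx3, Zfhx4, Meis1, Meis3, Six4 and Cux1) and the Trpv1- nodose pools 6, Zfhx3, Pbx4, Meis3 and Onecut2 among them. The same minimum was passed by 2977 to 5215 of all rows per group. Levels were also divided by the kilobases of all annotated exons of a gene. Whether reads covered long and short transcripts alike was not checked. Per kilobase of exon, Meis3 had the highest mean level of the members in the Trpv1+ nodose pools (15 CPM per kb) and the Trpv1- nodose pools (11.1 CPM per kb). Pbx4 had it in the Trpv1+ jugular pools (8.2 CPM per kb) and Zfhx3 in the capsaicin jugular pools (44.1 CPM per kb). Zfhx3 was at 1.98 and 20.6 CPM per kb in the capsaicin nodose pools and Pknox1 at 8.46 and 0.00212 CPM per kb in the Trpv1+ nodose pools, so that the order of neighbours is not resolved.

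**Figure D2:**
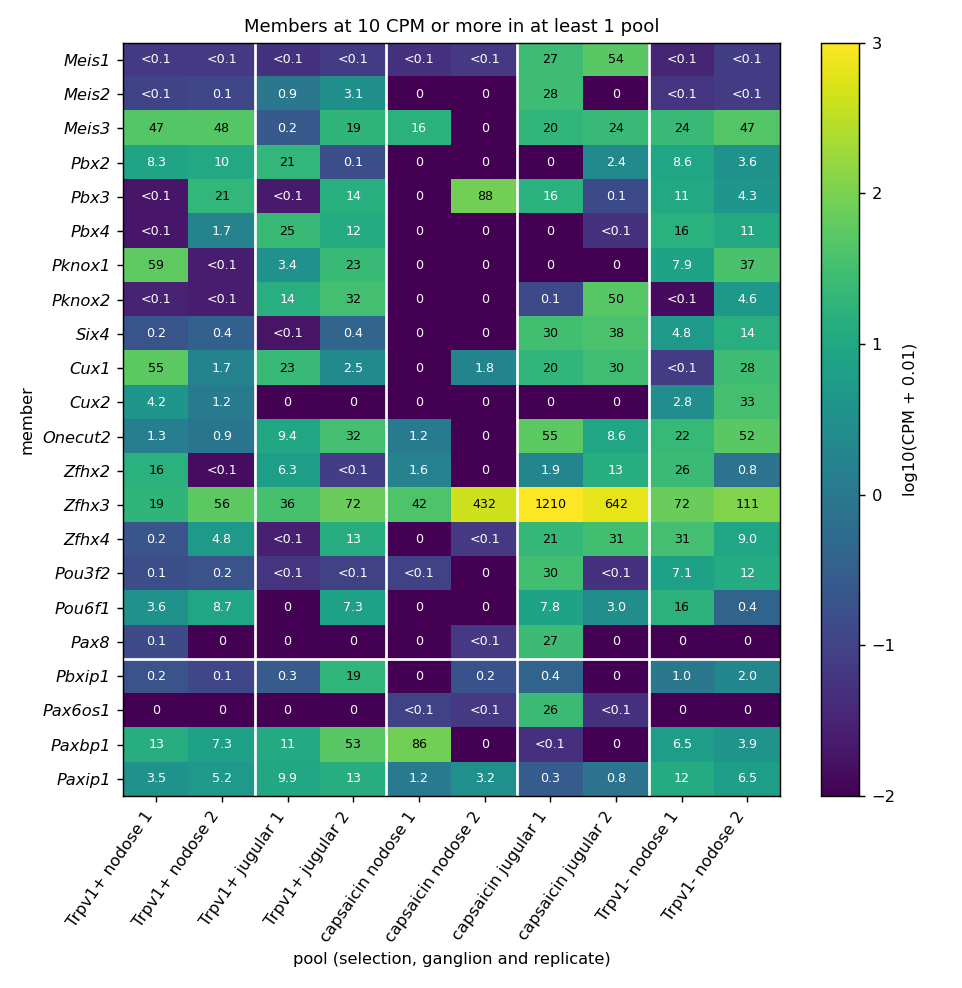
Level of 22 members that reached 10 CPM in at least 1 pool, by pool, coloured as log10(CPM + 0.01) with the CPM printed in each cell; the 4 rows under the white line are no homeobox genes. Zfhx3 is the only row at 10 CPM or more in all 10 columns, and many rows are high in 1 pool of a pair and dark in the other.

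Zfhx3 codes for a very large transcription factor with several homeodomains and many zinc fingers, and it is known for roles in neuronal differentiation and in the circadian clock. The gene lies at chr8:107942644-108961630 on the plus strand (GRCm38, GENCODE vM21), and none of its exonic 50-base windows is found in another gene. Its level was 19.1 and 55.5 CPM in the Trpv1+ nodose pools, 35.8 and 71.6 CPM in the Trpv1+ jugular pools and 71.7 and 111 CPM in the Trpv1- nodose pools. In the capsaicin selection it was 41.5 and 433 CPM in the nodose pools against 1210 and 642 CPM in the jugular pools. The 3 highest pools were thus of the capsaicin selection, and the first capsaicin nodose pool lay among those of the Trpv1 selection. Zfhx3 made up 78.2% and 68.3% of the summed CPM of all members in the capsaicin jugular pools, 15% and 39.6% in the capsaicin nodose pools and 5.63% to 24.4% in the 6 pools of the Trpv1 selection.

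The RefSeq start of Zfhx3 lies inside the span that GENCODE gives the gene, and the 250 bases before it are shown because this is the one member at 10 CPM or more in every pool. RefSeq promoter entries on GRCm38.p6 were found for 68 of the 99 members. The stretch at chr8:108714394-108714643, plus strand, holds 18 CG pairs and neither the homeodomain core TAAT nor the CCAAT box on either strand, so it has no capitals. TAAT or its reverse complement ATTA occurs in 54.9% of 32851 promoter windows of 250 bases, and CCAAT or ATTGG in 33.8%.
Zfhx3: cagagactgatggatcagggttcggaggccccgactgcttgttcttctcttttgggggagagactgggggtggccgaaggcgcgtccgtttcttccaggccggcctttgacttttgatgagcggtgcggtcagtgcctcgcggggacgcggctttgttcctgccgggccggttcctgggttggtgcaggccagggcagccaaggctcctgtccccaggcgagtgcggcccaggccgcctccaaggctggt

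**Figure D3:**
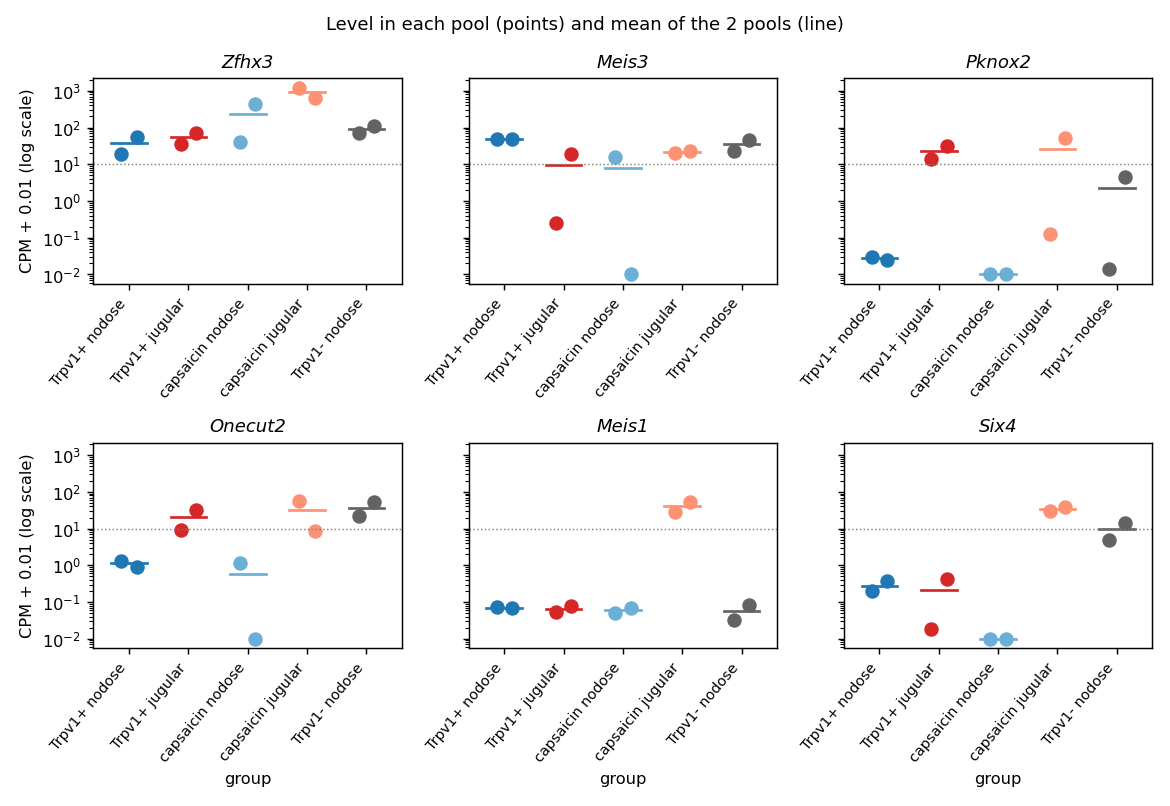
CPM + 0.01 on a log scale in each pool (points) with the mean of the 2 pools (line) for 6 members in the 5 groups; the dotted line is at 10 CPM, and points at the bottom are pools without a count. Pknox2 and Onecut2 are lower in all 4 Trpv1+ and capsaicin nodose pools than in all 4 jugular pools. The lower capsaicin jugular point of Pknox2, 0.118 CPM, is at the floor of 3 counts. Meis1 and Six4 stand out in the capsaicin jugular pools, and Meis3 and Zfhx3 overlap between the ganglia.

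The first comparison set Trpv1+ nodose against Trpv1+ jugular neurons. Pknox2 was seen in the jugular pools and hardly at all in the nodose pools, with Meis3 on the nodose side and Pbx4 and Onecut2 on the jugular side, but the replicate error was large. By edgeR's quasi-likelihood test, with a call set at an adjusted p of 0.1 or less, a fold of 2 or more and 10 CPM in both pools of a group, 0 of the 28 members tested were called, beside 0.318% of all 10990 genes tested. An unadjusted p under 0.05 was found for 3 of the 28, against 11.9% of all genes, and the smallest adjusted p was 0.321. By DESeq2, 1 of 54 members tested was called (Pknox2, lower in nodose), beside 3.05% of all genes, or 1.8% lower in nodose. The 2 pools of each ganglion did not overlap for 12 members, 5 higher and 7 lower in nodose, where 42.1% of all genes tested did not overlap (20.5% higher and 21.6% lower).

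Pknox2 codes for a TALE protein of the PREP type that pairs with Pbx proteins, and lies at chr9:36890982-37147407, minus strand. It was at 0.0206 and 0.0147 CPM in the Trpv1+ nodose pools and at 14.05 and 32 CPM in the Trpv1+ jugular pools. The log2 difference, nodose minus jugular, was -10.32 ± 2.60 (SE, n = 2 pools each, edgeR adjusted p = 0.321), and DESeq2 gave -10.32 with an adjusted p of 2.573e-08. The nodose pools held 3 or 4 reads each, so the size of this difference is not well set.

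Pbx4, a TALE protein at chr8:69832491-69872292, plus strand, lay on the jugular side, at 0.0103 and 1.72 CPM in nodose against 24.6 and 11.75 CPM in jugular pools. The log2 difference of Pbx4 was -4.38 ± 2.86 (edgeR adjusted p = 0.726), and it was -10.73 without the second nodose pool. Pbx2 and Pbx3 overlapped between the ganglia: Pbx3 was at 0.0103 and 20.7 CPM in nodose against 0.0129 and 14.3 CPM in jugular pools.

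Meis3, a TALE partner of Pbx and Hox proteins in the hindbrain, lies at chr7:16175090-16186504, plus strand. It was at 47.3 and 48.1 CPM in the Trpv1+ nodose pools and at 0.237 and 18.9 CPM in the Trpv1+ jugular pools. The nodose pools were alike and above both jugular pools, with a log2 difference of 2.30 ± 2.04 (edgeR adjusted p = 0.833). It was 1.31 without the first jugular pool and 7.63 without the second. Onecut2, a cut-domain factor known from liver, retina and motor neurons, was at 1.34 and 0.883 CPM in nodose against 9.41 and 32.4 CPM in jugular pools. Its log2 difference was -4.25 ± 2.07 (edgeR adjusted p = 0.557). DESeq2 gave Onecut2 an adjusted p of 0.0434, but it was not called because 1 jugular pool was under 10 CPM.

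Cux2, a cut factor known from upper-layer cortical neurons, was at 4.18 and 1.17 CPM in the Trpv1+ nodose pools and without a count in all 4 jugular pools. Against the floor of 3 counts per pool it was at least 213.5-fold higher in nodose in the Trpv1 selection, at levels under 10 CPM (edgeR adjusted p = 0.321). It also had no count in the capsaicin nodose pools. In the Trpv1- nodose pools it was at 2.79 and 33.5 CPM.

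**Figure D4:**
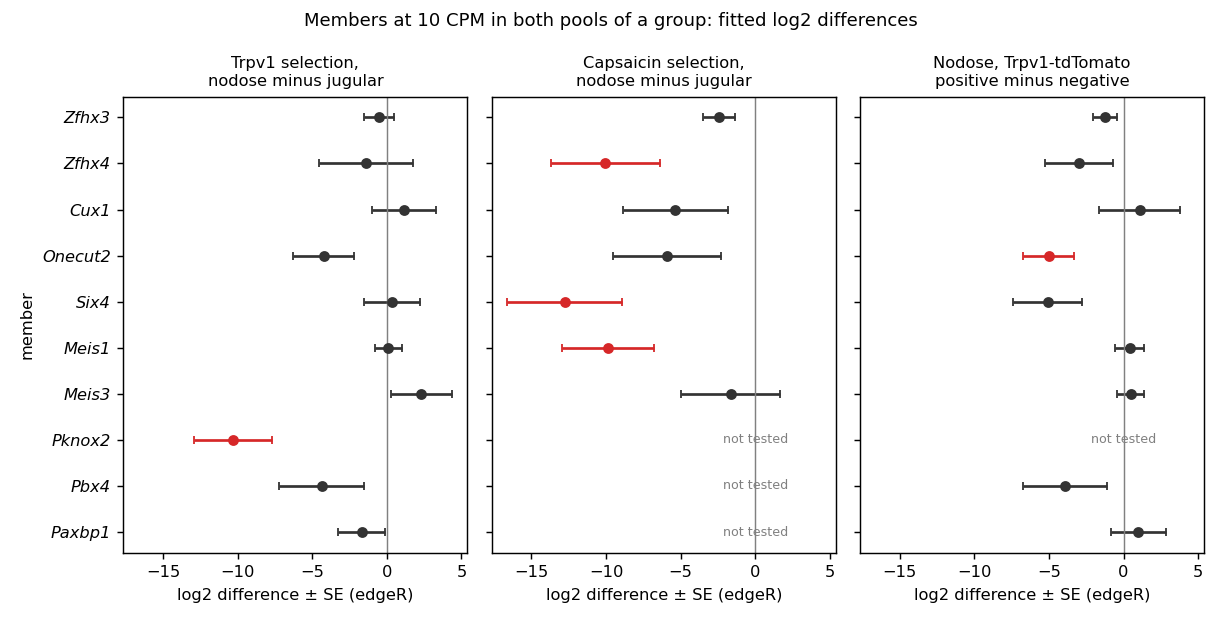
Log2 difference with its standard error from edgeR for 10 members at 10 CPM in both pools of a group, in the Trpv1 selection (left), the capsaicin selection (middle) and Trpv1+ minus Trpv1- nodose pools (right), with members called by DESeq2 in red. No member was called by edgeR in these comparisons; red marks Pknox2 on the left, Zfhx4, Six4 and Meis1 in the middle, and Onecut2 on the right, all below 0.

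The second comparison set nodose against jugular neurons in the capsaicin selection, in pools that share none with the first. Meis1, Six4 and Zfhx4 were at 20 to 54 CPM in both jugular pools and at or near 0 in both nodose pools. Of 12 members that passed the filter on low counts, edgeR called 0, beside 0% of all 8181 genes tested, and 4 had an unadjusted p under 0.05, against 14.1% of all genes, with a smallest adjusted p of 0.352. DESeq2 called 3 of 37 members tested (Meis1, Six4 and Zfhx4, all lower in nodose), beside 6.04% of all genes, or 5.17% lower in nodose. The pools of the ganglia did not overlap for 11 members, 2 higher and 9 lower in nodose, beside 42.1% of all genes (18.8% higher and 23.4% lower). The median log2 difference of the 12 members was -4.37 (-4.28 with groups without a count set at the floor), against -0.02 over all genes. Members that passed the filter through 1 high group had to differ, so nothing is read from this median or from the number of members without overlap.

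Meis1, a TALE protein that marks subsets of sensory neurons and acts with Pbx proteins, lies at chr11:18879817-19018985, minus strand, and 17% of its exonic 50-base windows are shared with other genes, mainly Gm16140 and Gm37818, which overlap it. It was at 27.4 and 53.7 CPM in the capsaicin jugular pools and at 0.0417 and 0.0585 CPM in the capsaicin nodose pools, where it had 2 reads in all. In the 6 pools of the Trpv1 selection it stayed between 0.0232 and 0.0709 CPM, jugular pools included. The ratio of jugular to nodose was 833.1, with a 95% counting interval of 230.6 to 6880. The log2 difference was -9.88 ± 3.10 (edgeR adjusted p = 0.352), and DESeq2 gave -9.93 with an adjusted p of 0.00165.

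Six4, a sine oculis homeobox factor known from cranial placodes and sensory ganglia, lies at chr12:73099609-73113456, minus strand. It was at 30.2 and 37.7 CPM in the capsaicin jugular pools and without a count in both capsaicin nodose pools. Against the floor it was at least 226-fold higher in jugular (edgeR adjusted p = 0.352, DESeq2 adjusted p = 0.00127). In the Trpv1+ pools of both ganglia it was at 0.00861 to 0.408 CPM, and in the Trpv1- nodose pools at 4.83 and 14.15 CPM.

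Zfhx4, a relative of Zfhx3, lies at chr3:5218526-5415857, plus strand. It was at 21.3 and 31.2 CPM in the capsaicin jugular pools and had 1 read in the capsaicin nodose pools. The log2 difference was -10.05 ± 3.66 (edgeR adjusted p = 0.352, DESeq2 adjusted p = 0.00407). In the Trpv1 selection it was at 0.201 and 4.84 CPM in Trpv1+ nodose, 0.0172 and 13.25 CPM in Trpv1+ jugular and 31.4 and 8.97 CPM in Trpv1- nodose pools, so that the ganglia overlapped there.

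The bases before the starts of Meis1 and Six4 are shown because both genes were high in the capsaicin jugular pools and under 1 CPM in the other C-fiber pools. They come from the RefSeq table on GRCm38.p6, minus strand, at chr11:19018986-19019219 and chr12:73113457-73113675, trimmed of bases that GENCODE counts as exon. Capitals mark the CCAAT box, which lies 54 bases before the start of Meis1 and 73 bases before that of Six4 and, as given above, is found in 33.8% of promoter windows. Neither stretch holds TAAT or ATTA.
Meis1: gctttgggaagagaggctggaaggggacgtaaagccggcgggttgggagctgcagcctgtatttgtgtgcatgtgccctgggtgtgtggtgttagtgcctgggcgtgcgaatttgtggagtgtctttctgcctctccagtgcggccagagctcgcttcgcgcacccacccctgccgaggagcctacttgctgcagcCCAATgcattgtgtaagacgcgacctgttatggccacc
Six4: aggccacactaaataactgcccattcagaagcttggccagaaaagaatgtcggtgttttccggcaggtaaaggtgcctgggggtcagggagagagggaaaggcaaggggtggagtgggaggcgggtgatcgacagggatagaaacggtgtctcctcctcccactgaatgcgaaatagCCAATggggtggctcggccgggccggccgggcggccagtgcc

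In the capsaicin selection Zfhx3 was lower in both nodose pools than in both jugular pools, with a log2 difference of -2.44 ± 1.08 (edgeR adjusted p = 0.420). It was -1.60 without the first nodose pool and -4.64 without the second. Cux1, at chr5:136248135-136567490, minus strand, a cut repressor that is widely expressed, was at 19.6 and 29.9 CPM in capsaicin jugular and 0 and 1.76 CPM in capsaicin nodose pools. It spread within groups in the Trpv1 selection, at 55.1 and 1.73 CPM in Trpv1+ nodose, 23.2 and 2.51 CPM in Trpv1+ jugular and 0.0657 and 27.7 CPM in Trpv1- nodose pools. Meis3 was at 15.8 and 0 CPM in the capsaicin nodose pools against 19.7 and 23.6 CPM in the jugular pools, which reversed the order of the Trpv1 selection. Pknox2 had no count in the capsaicin nodose pools, and in the jugular pools it was at 0.118 CPM, the floor, and 50.45 CPM.

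All 4 nodose pools were then set against all 4 jugular pools of the Trpv1+ and capsaicin groups, with the selection as a covariate. Over these 8 pools 3 of the 33 members tested did not overlap between the ganglia, beside 5.11% of all 11959 genes. Of these, 1 was higher in nodose (1.87% of all genes), and 2, Pknox2 and Onecut2, were lower (3.24%). For Pknox2 the first capsaicin jugular pool had 3 reads (0.118 CPM). This lay under the floors of the capsaicin nodose pools, 0.125 and 0.176 CPM, which had no count, so that its order among these pools is not resolved. By edgeR, 0 of the 33 were called, beside 0.577% of all genes, 3 had an unadjusted p under 0.05 (11.1% of all genes) and the smallest adjusted p was 0.260 (Pknox2). DESeq2 called 5 of 56 (1 higher, and Pknox2, Meis1, Six4 and Zfhx4 lower), beside 7.38% of all genes, 2.34% higher and 5.05% lower.

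Over the same 8 pools Pknox2 ranged from 0 to 0.0206 CPM in nodose and from 0.118 to 50.45 CPM in jugular pools, with a log2 difference of -11.33 ± 3.08 (edgeR adjusted p = 0.260, DESeq2 adjusted p = 2.796e-08). Onecut2 ranged from 0 to 1.34 CPM in nodose and from 8.63 to 55.5 CPM in jugular pools, with -5.02 ± 2.29 (edgeR adjusted p = 0.457, DESeq2 adjusted p = 0.00227). It was not called by DESeq2, since 1 jugular pool of each selection was under 10 CPM. Meis1, Six4 and Zfhx4 overlapped over the 8 pools. Meis1 and Six4 were under 1 CPM in both Trpv1+ jugular pools, while Zfhx4 was at 0.0172 CPM in the first and 13.25 CPM in the second. Leaving out 1 pool at a time, the log2 difference stayed between -12 and -9.89 for Pknox2 and between -5.67 and -4.1 for Onecut2.

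Whether the ganglion difference itself differed between the selections was tested as an interaction, the difference in the Trpv1 selection minus that in the capsaicin selection. By edgeR, 0 of 33 members were called, beside 0% of all 11959 genes, 5 had an unadjusted p under 0.05 (10.3% of all genes) and the smallest adjusted p was 0.478. DESeq2 called 3 of 56 (Meis1, Six4 and Paxbp1), beside 7.1% of all genes. Of the 12 members tested in both selections, 5 had the same direction in both, Onecut2, Pbx3, Zfhx3 and Zfhx4 among them, or 41.7%, where 55.8% of 7741 genes did.

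Trpv1+ nodose pools were also compared with the Trpv1- nodose pools of the same mice. This comparison shares the Trpv1+ nodose pools with the first comparison, so both sets of differences are not independent. Onecut2, Six4 and Pou3f2 were higher in both Trpv1- pools, while Meis3 differed little beside its error. By edgeR, 0 of 34 members were called, beside 0.0527% of all 11386 genes, 2 had an unadjusted p under 0.05 (11.1% of all genes) and the smallest adjusted p was 0.371. DESeq2 called 1 of 53 (Onecut2, lower in Trpv1+), beside 2.09% of all genes, or 1.59% lower in Trpv1+. The pools did not overlap for 15 members, 4 higher and 11 lower in Trpv1+, beside 40.7% of all genes (18.4% higher and 22.4% lower).

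Onecut2 was at 22.3 and 52.3 CPM in the Trpv1- pools and at 1.34 and 0.883 CPM in the Trpv1+ nodose pools. The log2 difference, Trpv1+ minus Trpv1-, was -5.03 ± 1.69 (edgeR adjusted p = 0.379, DESeq2 adjusted p = 0.00642). Its close relative Onecut1, singled out after its values were seen, was at 7.86 and 0.609 CPM in the Trpv1- pools and had 1 read in each Trpv1+ nodose pool. Six4 had a log2 difference of -5.09 ± 2.31 (edgeR adjusted p = 0.536) at the levels given above. Pou3f2, a POU factor of neuronal precursors also known as Brn2, was at 7.12 and 12.1 CPM in the Trpv1- pools and 0.149 and 0.181 CPM in the Trpv1+ nodose pools, with -5.82 ± 2.32 (edgeR adjusted p = 0.459). Pbx4 was at 15.9 and 10.8 CPM in the Trpv1- pools, near its Trpv1+ jugular levels.

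Meis3 and Zfhx3 did not pass either test here. Meis3 was at 23.6 and 46.7 CPM in the Trpv1- pools, with a log2 difference of 0.48 ± 0.90 (edgeR adjusted p = 0.965). Zfhx3 was lower in both Trpv1+ pools than in both Trpv1- pools, by -1.25 ± 0.81 (edgeR adjusted p = 0.737), and the difference was -0.65 without the first Trpv1+ pool and -2.22 without the second. Pknox2 had 1 read in 1 Trpv1- pool and 4.59 CPM in the other. The 12 listed markers of satellite glia and Schwann cells summed to 3430 and 3144 CPM in the Trpv1- pools and 3569 and 3609 CPM in the Trpv1+ nodose pools. Of the defining markers, Sox10 was at 10.15 and 2.24 CPM in the Trpv1- pools and 0 and 0.176 CPM in the Trpv1+ nodose pools, and Erbb3 was at 0.0257 CPM or less in all 4, and the part of such cells in these differences was not tested.

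A comparison of the capsaicin with the Trpv1 selection over both ganglia was added after the values had been seen. Sequencing core, strain, depth, cells per pool and the calcium assay all change with the selection and cannot be told apart from it. Zfhx3 was the 1 of 33 members that edgeR called, at a log2 difference (capsaicin minus Trpv1) of 2.78 ± 0.78 (adjusted p = 0.0882), beside 5.84% of all genes called, or 1.77% called higher. The mean was 581 CPM in the 4 capsaicin pools and 45.5 CPM in the 4 Trpv1+ pools, and 41.5 CPM in the first capsaicin nodose pool lay inside the range of 19.1 to 71.6 CPM of the latter. An unadjusted p under 0.05 was found for 5 members, against 20.8% of all genes. DESeq2 called 3 of 56 (Zfhx3 and Meis1 higher, Pbx4 lower), beside 14.5% of all genes, 5.75% higher and 8.8% lower. For Meis1 only the capsaicin jugular pools were high, at 27.4 and 53.7 CPM. In nodose pools it was at 0.0417 and 0.0585 CPM in the capsaicin and 0.0618 and 0.0589 CPM in the Trpv1 selection.

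The scaling matters here. The median log2 difference of all genes was -1.04 with TMM factors and -0.51 with DESeq2 size factors in edgeR, and the calls over all genes split into 212 higher and 486 lower (30.4% higher) with the former and 288 higher and 271 lower (51.5% higher) with the latter. Relative to that median, Zfhx3 was higher by 3.82 and 3.90 on the log2 scale. The call was lost when any of 6 pools was left out: the Trpv1+ nodose replicate 1 (2.76), either Trpv1+ jugular pool (2.47 and 2.75), the capsaicin nodose replicate 2 (2.50) or either capsaicin jugular pool (2.50 and 2.885), with adjusted p up to 0.272 by edgeR. Pbx4 was at 9.52 CPM on average in the Trpv1+ pools and had 1 read in the capsaicin pools (edgeR adjusted p = 0.130, DESeq2 adjusted p = 2.99e-04). That average came mainly from the Trpv1+ jugular pools, at 24.6 and 11.75 CPM against 0.0103 and 1.72 CPM in the Trpv1+ nodose pools. Pknox1 had no count in the capsaicin pools, and its mean in the Trpv1+ pools was at least 156.5-fold above their floor. The Trpv1+ pools ranged from 0.0147 to 58.7 CPM, and the lowest, nodose replicate 2, lay under that floor. Neither tool called Pknox1 (edgeR adjusted p = 0.136, DESeq2 adjusted p = 1.147e-04). The 12 glial markers summed to 2975 to 4053 CPM in the Trpv1 selection against 1597 to 2094 CPM in the capsaicin selection, mostly Apoe in the former and Pmp22 in the latter, with Sox10 at 0 in all 4 capsaicin pools and Erbb3 at 0 there, and their part in the result was not tested.

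Members that reached 10 CPM in 1 pool of a group but never in both included 5 that reached it in the first capsaicin jugular pool and were under 1 CPM in the second: Meis2 at 27.9 CPM, Pou3f2 at 30.2 CPM, Pax8 at 27.1 CPM, Pbx3 at 15.8 CPM and the antisense RNA Pax6os1 at 25.9 CPM. In the second pool Meis2 and Pax8 had no count, Pou3f2 and Pax6os1 were at 0.0417 CPM and Pbx3 was at 0.125 CPM. The first pool also held 239 CPM of the fibroblast marker Dcn, with Col1a1, Col1a2, Lum and Pdgfra at 0, and whether other cells took part was not tested. Pax8 is a paired box factor of kidney, thyroid and placodes, and Meis2 a TALE factor of sensory neurons. Pax6os1 overlaps Pax6, which had no count in that pool, and where counting ignores the strand the reads of such a pair cannot be told apart.

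Among TALE members, Pknox1 was at 58.7 and 0.0147 CPM in the Trpv1+ nodose, 3.44 and 22.9 CPM in the Trpv1+ jugular and 7.88 and 37.05 CPM in the Trpv1- nodose pools. Pbx2, a broadly expressed Pbx protein, was at 8.26 and 10.2 CPM in Trpv1+ nodose and 20.6 and 0.149 CPM in Trpv1+ jugular pools. Pbx3 peaked at 87.8 CPM in the second capsaicin nodose pool and had no count in the first. Zfhx2, linked to pain sensing, was at 15.9 and 0.0049 CPM in Trpv1+ nodose and 25.7 and 0.784 CPM in Trpv1- nodose pools, and 17% of its exonic windows are shared with other genes, mainly the opposite-strand Zfhx2os. Pou6f1 peaked at 16.5 CPM in 1 Trpv1- pool. None of these had 2 agreeing pools at 10 CPM.

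The rows that are no homeobox genes were described apart. Paxbp1, a binding partner of Pax3 and Pax7 at chr16:91014037-91044543, minus strand, was at 13 and 7.26 CPM in Trpv1+ nodose, 11.5 and 53.4 CPM in Trpv1+ jugular, 86.3 and 0 CPM in capsaicin nodose and 0.0392 and 0 CPM in capsaicin jugular pools, and at 6.46 and 3.87 CPM in Trpv1- nodose pools. Its DESeq2 call in the interaction rested on 1 capsaicin nodose pool, and 19.4% of its exonic windows are shared with 4930404I05Rik. Paxip1, a protein of DNA repair and histone methylation complexes, was at 1.17 to 12.8 CPM in 8 pools, highest in the second Trpv1+ jugular pool. In the capsaicin jugular pools it was at 0.275 and 0.792 CPM. Pbxip1, which binds Pbx proteins, reached 19.1 CPM in 1 Trpv1+ jugular pool and at most 1.96 CPM elsewhere.

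Partners of homeodomain proteins outside the rule were listed by function: Isl1 and Isl2, LIM cofactors, Eya and Dach genes, and Tle corepressors, 25 symbols of which 24 had a row. By edgeR 0 were called in any nodose and jugular comparison or between Trpv1+ and Trpv1- pools, with 6 of 17, 3 of 14, 0 of 18, 4 of 19 and 3 of 19 at an unadjusted p under 0.05 in the Trpv1 selection, the capsaicin selection, the Trpv1 contrast, both selections together and the interaction, where 11.9%, 14.1%, 11.1%, 11.1% and 10.3% of all genes had one. DESeq2 called 0 of 20, 1 of 20, 0 of 21, 5 of 21 and 3 of 21, where it called 3.05%, 6.04%, 2.09%, 7.38% and 7.1% of all genes. Eya1, a cofactor of sine oculis homeobox proteins, was at 1.76 and 27.7 CPM in Trpv1+ nodose and 46.9 and 24.6 CPM in capsaicin nodose pools. It was at 29.9 and 37.2 CPM in Trpv1- nodose pools and at 0.0215 CPM or less in all 4 jugular pools. Over both selections DESeq2 gave Eya1 a log2 difference of 10.7 (adjusted p = 4.53e-12), while the edgeR adjusted p was 0.237. Tle4, a Groucho corepressor, was at 77.9 to 134 CPM in the 4 nodose and 6 to 29.2 CPM in the 4 jugular pools (DESeq2 adjusted p = 0.00507, edgeR adjusted p = 0.351).

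Eya3, Ldb1 and Lmo1 lay the other way, with DESeq2 adjusted p of 0.00138, 0.00683 and 0.0274 over both selections. The edgeR adjusted p were 0.531, 0.621 and 0.504. Eya3 was at 7.53 to 11.65 CPM in the 4 jugular pools and at 0 to 1.47 CPM in the 4 nodose pools. Ldb1, the adaptor of LIM proteins, was at 2.825 to 43.1 CPM in jugular and 0 to 11.3 CPM in nodose pools. Lmo1 was at 0 to 94.6 CPM in jugular and 0 to 6.70 CPM in nodose pools, so that Ldb1 and Lmo1 overlapped between the ganglia. In the Trpv1- nodose pools Eya3 was at 5.22 and 0.0376 CPM, Ldb1 at 7.38 and 48.1 CPM and Lmo1 at 7.95 and 50.45 CPM. In the added comparison of selections edgeR called 2 of 19 partners, Aes and Ssbp4, both lower in the capsaicin selection, beside 5.84% of all genes, and DESeq2 called 7 of 21, beside 14.5% of all genes. With the TMM factors used here most edgeR calls over all genes, 486 of 698, were lower in the capsaicin selection. Ssbp4 had no count in the 4 capsaicin pools and was at 4.94 to 64 CPM in the 4 Trpv1+ pools.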

How the data were processed

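Neurons were picked by hand, and cDNA was made with the SMARTer Ultra Low Input RNA kit and sequenced as 50-base paired ends. The deposited files hold raw counts, 1 table for each of the 10 pools, which the authors made from reads aligned to mm10 with TopHat2 2.0.9 and Bowtie2 2.1.0.0 and counted with HTSeq. The annotation and strand setting of the counting were not given in the sources used here. Amplification bias in low input cDNA adds to the spread between pools, and reads carry no molecular identifiers.

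CPM used the size factors of DESeq2 1.42.0. Tests used edgeR 4.0.16 in R 4.3.3 (TMM, filterByExpr, estimateDisp, glmQLFit, glmQLFTest) on all genes, with Benjamini-Hochberg adjustment, and DESeq2 as an alternative. Standard errors are the log2 difference over the square root of F. Each fit of 4 pools used those pools alone, and fits over both selections used 8 pools. The scripts were tested on simulated data with 200 changed genes. Alternatives were normalization, low-count filter, CPM minimum, Rn45s, replicate block and leaving out each pool. Python 3.11.15 made tables and figures.

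Groups came from the sample labels. The members and lists were chosen with earlier results of these data known. Members at 10 CPM in both pools of a group or called by either tool are named with their values, some of them as ranges over pools. Members at 10 CPM in 1 pool of a group, but never in both, are named with the pool or group of their highest value. Some members and markers are not reported here by name, while counts over the members include them.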

Additional observations from a re-analysis of the deposited data

Results flagged for a closer look

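A set of 3 rows was flagged because the ganglion difference of the Trpv1 selection differed from that of the capsaicin selection in DESeq2's interaction test. The difference between the differences was 9.80 for Meis1 (adjusted p = 3.531e-06), 12.25 for Six4 (adjusted p = 0.00146) and -12.77 for Paxbp1 (adjusted p = 0.0185), on the log2 scale. The edgeR test called none of them (adjusted p = 0.478 each). Meis1 and Six4 were high in the capsaicin jugular pools only among these 8, and Paxbp1 rests on 1 capsaicin nodose pool.

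Meis3 and Paxip1 were flagged because the pools of the ganglia did not overlap in either selection, in opposite directions. Meis3 was higher in nodose in the Trpv1 selection and lower in the capsaicin selection, with an edgeR interaction of 4.09 (adjusted p = 0.852), and Paxip1 was lower and then higher, with -2.935 (adjusted p = 0.944), so that neither interaction passed the test.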

How the results depend on the processing

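Of 29 log2 differences followed over 401 values under alternatives, 375 kept their direction and their side of the threshold, 16 came to pass it (15 with DESeq2, 1 without the low-count filter), 7 no longer passed it and 3 reversed. With DESeq2 the members called were 1 and 3 in the Trpv1 and capsaicin selections, 1 between Trpv1+ and Trpv1- nodose, 5 over both selections, 3 in the interaction and 3 between selections, and without the low-count filter 1 over both selections. Over all genes edgeR and DESeq2 called 35 and 459, 0 and 734, 6 and 320, 69 and 1151, 0 and 1107, and 698 and 2268 in the 6 comparisons, and the cause was not tested. Without the filter edgeR called 59, 122, 10, 222, 95 and 943. The 7 values that no longer passed were all Zfhx3 between selections, in the replicate block (3.36, adjusted p = 0.385) and in 6 of the fits without 1 pool. Leaving out each pool, the members called between selections were 0 to 1, the log2 difference of Zfhx3 in the Trpv1 selection was -1.52 to 0.0485, reversing without nodose replicate 1 (0.0485) or jugular replicate 2 (0.0441), and that of Paxbp1 in the interaction was -16.8 to 2.64, reversing without capsaicin nodose replicate 1 (2.64).

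Same-numbered pools did not deviate together (r = 0.00221, -0.0126, 0.0177 and -0.0137 across genes). This cannot show whether same-numbered pools share mice, since the large spread between small pools could hide it. The replicate block called 0 members in the 6 comparisons, and 13, 20, 1, 41, 0 and 176 of all genes. In the groups Trpv1+ nodose, Trpv1+ jugular, capsaicin nodose, capsaicin jugular and Trpv1- nodose, members expressed were 3, 4, 2, 6 and 6. They were 0, 0, 1, 1 and 1 at a minimum of 50 CPM and 8, 10, 4, 14 and 11 by the mean of the pools. At a minimum of 1 CPM they were 10, 9 and 15 in the Trpv1 selection, and with plain totals 10 in the Trpv1- pools. DESeq2 size factors in place of TMM moved the median of all genes by 0.108, 0.133, -0.35 and 0.521 in the capsaicin selection, over both selections, in the interaction and between selections, and reversed none of the 29 differences. Depth limits low levels most in the capsaicin selection, where 3 counts equal 0.118 to 0.176 CPM.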
